A study of Mus musculus with 24 samples.

Results

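Antisense liver lncRNA features are transcripts classed as long noncoding and assigned to the strand opposite a coding gene that they overlap. This class is given by the gene models used, where their names begin with NC_AS_. A feature was kept when its TPM (transcript level scaled to transcript length and to the sum of its group) was at least 0.5 in at least 1 of 4 groups of male mouse liver. This rule kept 2065 of 4128 NC_AS_ features, out of 75794 features read. Members were thus selected on their measured group TPM, and their levels are given as a description. The members just inside the floor were NC_AS_C10_18232, with a highest group TPM of 0.5001, and NC_AS_C9_8419, with 0.5006. Those just outside were NC_AS_C1_16483 at 0.4998 and NC_AS_C19_31795 at 0.4996.

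Antisense transcripts can be transcribed from their own promoters, from the opposite side of a coding gene's promoter or past the end of a neighbouring gene. Several are known to act on the gene they overlap, for example through chromatin or through pairing with its RNA, while for most no function is known. In liver, pulses of growth hormone (GH) bind the GH receptor, which activates JAK2 and then the transcription factor STAT5b, and the male pulse pattern sets many of the sex differences in hepatocyte expression. IGF1, made by hepatocytes in response, is the circulating growth factor of this axis.

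All 24 mice were Ghr fl/fl males on C57BL/6, 10 to 12 weeks old and fed chow, with 6 in each group, and polyA-selected liver RNA was sequenced 7 days after a tail vein injection of AAV8 vectors. Every vector was driven by the TBG promoter, which is active in hepatocytes, and every animal received a total of 3.5 (in units of 1e+11 genome copies). Control mice received 3.5 of Null vector. The aHepGHRkd group received Cre at 1.5, which deletes the floxed part of Ghr in hepatocytes, with Null vector at 2.0. The aHepGHRkd_rIGF1 group received Cre at 1.5 and rat IGF1 at 2.0, and the aHepGHRkd_STAT5bCA group received Cre at 1.5, constitutively active STAT5b at 0.75 and Null vector at 1.25. Control therefore lacked Cre as well as the deletion, and non-hepatocyte cells kept Ghr in all groups. The treatment protocol speaks of both sexes, but every sample is labelled male. The table holds 1 value per group and none per animal, so no SD can be given, and the depth per library is unknown.

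Hepatocyte markers were high in every group, with a summed level of 152468 to 172977 TPM over 12 genes, and none was listed at 0 in all groups. Of the other marker lists, the summed level over all groups ran from 168 to 215 TPM for Kupffer cells, 70.9 to 104 for cholangiocytes, 116 to 136 for endothelial cells, 145 to 244 for stellate cells, 6.66 to 8.81 for lymphocytes, 12.7 to 15.9 for neutrophils and 293 to 561 for erythrocytes. Of 8 erythrocyte markers measured, 2 were called lower in aHepGHRkd and 1 with STAT5bCA. Of the hepatocyte markers, 1 was called higher and 1 lower in aHepGHRkd and 1 higher with STAT5bCA, and none of the Kupffer, cholangiocyte, endothelial, stellate, lymphocyte or neutrophil markers was called in any comparison. In the authors' deposited table Ghr fell to a ratio of 0.302 of Control in aHepGHRkd (adjusted p = 9.99e-61), and Stat5b, whose reads can include the vector's, rose 2.91-fold with STAT5bCA (adjusted p = 2.98e-39). Igf1 stood at 143 TPM in Control, 26.2 in aHepGHRkd, 114 with rIGF1 and 96.4 with STAT5bCA. With rIGF1, reads of the rat IGF1 vector could be counted for Igf1, which was not tested. Of its ratios per the authors' deposited table, 0.186 for aHepGHRkd over Control passed the test (adjusted p = 0.01), while 3.89 for rIGF1 (adjusted p = 0.946) and 3.67 for STAT5bCA (adjusted p = 0.162) did not.

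Sequences are shown for members that RefSeq names, since a promoter or a miRNA could be read for them. A named RefSeq gene with a promoter window (250 bases before to 50 after its start, GRCm38.p6) was found by symbol for 246 members. The letters TTCNNNGAA, the STAT5 core motif, read the same on both strands and occurred in 8.13% of these 246 windows and in 8.30% of all 32851 RefSeq promoters. Of the 17 matched members that passed a test in any comparison, 1 held it. That member is NC_AS_C7_5880, annotated as D7Ertd143e, the host of the miR-290 cluster that is best known from embryonic stem cells. Its motif, in capitals, begins 1 base before the RefSeq start (chr7:3218534-3218833, plus strand). It is shown beside Gm42375 (NC_AS_C7_6007, chr7:26307163-26307462, minus strand) and Hopxos (NC_AS_C5_4311, chr5:77098580-77098879, plus strand), which hold no match. A match is a string of letters and not a measured site, and the RefSeq start may differ from the start of the feature in the gene models used. For D7Ertd143e it does differ. Its window holds miR-290a-5p (chr7:3218639-3218660) before the motif, and NC_AS_C7_5880 is annotated with this miRNA. The motif thus lies past part of the feature and not at the feature's start.
D7Ertd143e: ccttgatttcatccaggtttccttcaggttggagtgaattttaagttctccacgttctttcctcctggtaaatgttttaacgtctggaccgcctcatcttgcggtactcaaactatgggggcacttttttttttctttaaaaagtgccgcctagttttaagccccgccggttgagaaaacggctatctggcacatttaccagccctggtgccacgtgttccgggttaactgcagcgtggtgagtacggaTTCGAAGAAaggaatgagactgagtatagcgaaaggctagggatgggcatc
Gm42375: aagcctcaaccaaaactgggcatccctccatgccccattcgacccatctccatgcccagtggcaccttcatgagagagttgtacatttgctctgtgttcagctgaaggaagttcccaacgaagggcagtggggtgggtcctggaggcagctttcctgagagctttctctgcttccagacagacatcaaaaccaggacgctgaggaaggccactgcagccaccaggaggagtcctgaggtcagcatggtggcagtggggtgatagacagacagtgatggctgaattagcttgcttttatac
Hopxos: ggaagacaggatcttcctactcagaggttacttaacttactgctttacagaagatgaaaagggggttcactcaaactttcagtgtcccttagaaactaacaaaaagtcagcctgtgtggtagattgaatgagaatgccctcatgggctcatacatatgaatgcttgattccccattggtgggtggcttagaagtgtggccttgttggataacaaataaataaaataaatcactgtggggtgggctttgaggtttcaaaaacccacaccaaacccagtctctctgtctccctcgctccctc

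In all, 19 members were annotated with a miRNA. Mature sequences from RefSeq (GRCm38.p6) are given for 3 of them that were lower in aHepGHRkd, chosen after their values were seen, with the seed (bases 2 to 8) in capitals. Within NC_AS_C7_5880, miR-291a-3p, miR-294-3p and miR-295-3p share 1 seed, and miR-290a-5p, miR-292a-5p and miR-293-5p share another. The other 2 are miR-3968, within NC_AS_C11_10170 over Trim80, and miR-6397, within NC_AS_C4_38502 over Scp2, the sterol carrier protein gene. The libraries measured polyadenylated RNA over the feature and not the mature miRNAs.
mmu-miR-291a-3p: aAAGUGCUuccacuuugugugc
mmu-miR-294-3p: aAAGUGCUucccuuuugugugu
mmu-miR-295-3p: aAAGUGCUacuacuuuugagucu
mmu-miR-290a-5p: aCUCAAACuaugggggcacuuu
mmu-miR-292a-5p: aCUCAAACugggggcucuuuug
mmu-miR-293-5p: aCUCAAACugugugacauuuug
mmu-miR-3968: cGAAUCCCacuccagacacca
mmu-miR-6397: uGGAGACUuucaguggaguga

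The TPM of NC_AS_C7_5880 was 6.47 in Control, 1.88 in aHepGHRkd, 2.20 with rIGF1 and 3.96 with STAT5bCA. It was highest in Control and lowest in aHepGHRkd, with a ratio of 0.294 (adjusted p = 1.04e-06) for aHepGHRkd over Control and of 2.14 (adjusted p = 0.0205) for STAT5bCA over aHepGHRkd per the authors' deposited table. It overlaps the end of Nlrp12, an NLR family gene, whose own ratios per the authors' deposited table were 0.446 (adjusted p = 0.000538) and 1.66 (adjusted p = 0.248). NC_AS_C4_38502 was at 5.06, 2.12, 2.53 and 2.93 TPM in the same group order, and its ratio to Control per the authors' deposited table was 0.417 (adjusted p = 2.38e-08), a log2 ratio of -1.26 beside -0.56 for Scp2. NC_AS_C11_10170 was at 2.04, 1.02, 1.55 and 2.09 TPM, with ratios of 0.497 (adjusted p = 0.00628) and 2.11 (adjusted p = 0.0129) per the authors' deposited table. On the log2 scale these are -1.01 and 1.08, beside -1.01 and 1.22 for Trim80.

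The 2065 members were spread over both strands (1054 plus, 1011 minus). Their median span on mm9 was 3842 bp, from 200 to 556722 bp, and 1376 had 1 exon. For each, the sense gene was taken as the opposite-strand coding feature with the largest overlap of spans. Such a gene existed for 2055 members and not for 10, and 137 members overlapped several. Although classed as noncoding, 31 members also carried a RefSeq identifier of a coding transcript. The median overlap was 92.2% of the member's span, but some members named below share few bases with their sense gene. The overlap was 71 bp for Egfr, 147 bp for Urad, 85 bp for Cyp2u1, 99 bp for Abhd2 and 42 bp each for Nudt7 and Snai3. Of the members, 888 lay inside the sense gene, 691 reached over its 3′ end, 415 over its 5′ end and 61 covered it. In all there were 1843 distinct sense genes, of which 170 had several members, led by Fads2, a fatty acid desaturase gene, with 9. Slco1a1, an organic anion transporter gene, and Cyp3a25, a cytochrome P450 gene, had 7 members each.

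Most members were present in every group, since 1696 (82.1%) reached 0.5 TPM in all 4. Of the 145 that did so in 1 group alone, 57 did with rIGF1, 38 in Control, 35 with STAT5bCA and 15 in aHepGHRkd. Of the 57, 0 passed the test for rIGF1 over aHepGHRkd, and of the 15, 0 passed in any comparison. For aHepGHRkd over Control 8 of the 38 passed, and for STAT5bCA over aHepGHRkd 13 of the 35. The same counts were not made over all features. The median member stood at 2.06, 2.02, 2.19 and 2.01 TPM in the 4 groups, and 366 members reached 10 TPM in Control. Together they took 3.78% to 3.85% of all TPM.

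The members with the highest levels lay over genes of abundant liver proteins. NC_AS_C7_5965, over Apoe, the apolipoprotein E gene, was at 4086, 4539, 4656 and 4376 TPM, and NC_AS_C7_6162, over the ferritin light chain gene Ftl1, at 2920, 2732, 2518 and 3136 TPM. NC_AS_C16_13146 over Ahsg, which encodes fetuin A, was at 1925, 1678, 1809 and 1853 TPM. None of these passed the test in any comparison. The other members of the highest 10 in Control lay over Ttr, Apoc1, Apoa5, Fga, Hpx, Rbp4 and Fabp1, between 664 and 1208 TPM in Control. Of these the Ttr member NC_AS_C18_14332 rose 1.38-fold (adjusted p = 0.00362) and the Apoc1 member NC_AS_C7_5964 rose 1.46-fold (adjusted p = 0.0454) in aHepGHRkd over Control per the authors' deposited table, with the same ratios of 1.38 and 1.46 for Ttr and Apoc1. The Apoe member stood at 16.1%, 16.5%, 17.0% and 16.3% of the Apoe TPM in the 4 groups, and the Fabp1 member NC_AS_C6_5250 at 6.45%, 6.46%, 6.49% and 6.49%. Strand use in the authors' counting was not given in the sources used here, so reads of a member and of its sense gene cannot be told apart.

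Across members the median level was 22.2% of the sense gene TPM in Control and 21.1% in aHepGHRkd, 21.9% with rIGF1 and 21.1% with STAT5bCA. The lower and upper quartiles in Control were 8.57% and 63.0%. In Control 360 of the 2055 members with a sense gene (17.5%) stood above it. NC_AS_C9_8106, over the end of Onecut1, a liver transcription factor gene that is also called HNF6, was among them at 207% of the Onecut1 TPM in Control and 209% with STAT5bCA. This member overlaps Onecut1 by 95 bp, or 0.558% of its own span.

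**Figure D1:**
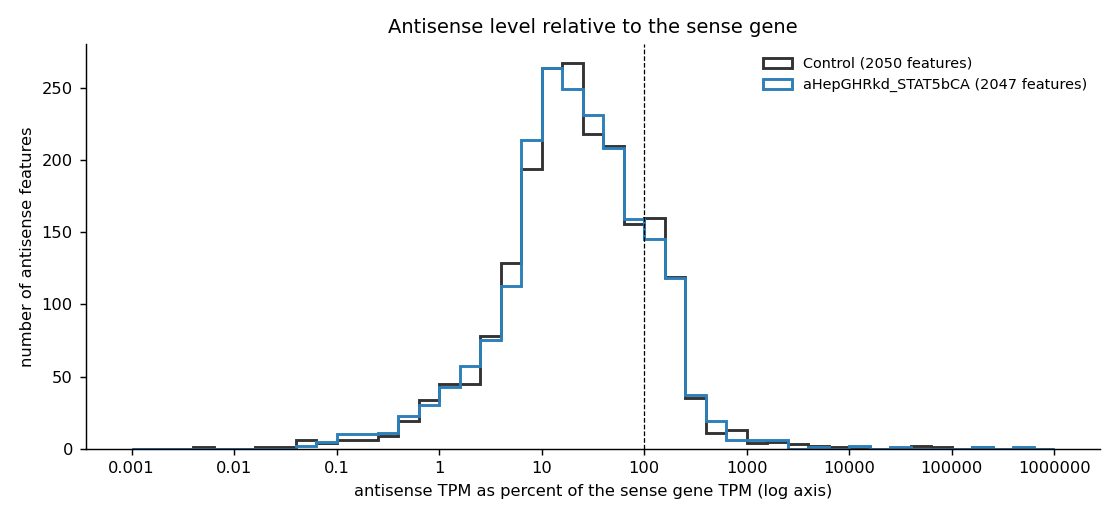
Histogram of antisense TPM as a percent of the sense gene TPM (log axis) over members with both above 0, with the number of features on the vertical axis, for Control (black) and aHepGHRkd_STAT5bCA (blue). Both outlines peak near the medians of 22.2% and 21.1%, and the dashed line marks equal levels.

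Loss of hepatocyte GH receptor was compared first. In aHepGHRkd, 103 members fell and 37 rose relative to Control (adjusted p under 0.05 per the authors' deposited table), with a median ratio of 0.498 among those that fell and 1.73 among those that rose. These are 4.99% and 1.79% of the members, against 3.70% lower and 2.27% higher among all 19071 features over the same floor, and 1.79% in both directions together among all 75794 features. Of the 140 called members, 118 were at or above 0.5 TPM in all 4 groups. Among those that fell, 19 were under 0.5 TPM in aHepGHRkd. Another limit is that 8 called members reached the floor in Control alone. That Control stood highest was fixed by the selection for these 8. The median log2 ratio of all members was -0.01, against 0.01 for all features over the floor. In whole liver, fewer cells of a type and less RNA per cell cannot be told apart.

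**Figure D2:**
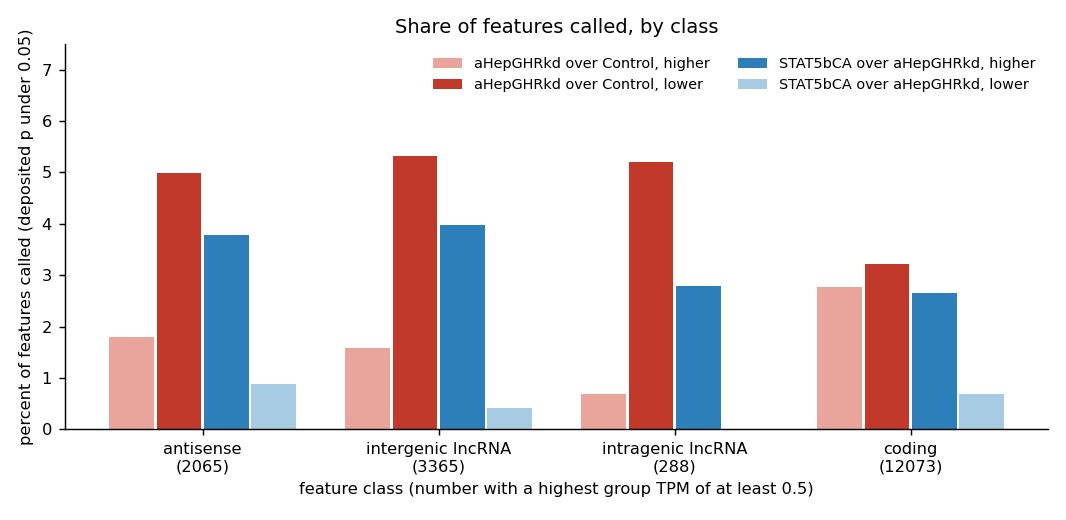
Percent of features called (adjusted p under 0.05) by class, for features with a highest group TPM of at least 0.5. Antisense features were called lower in aHepGHRkd in 4.99% of cases and higher with STAT5bCA in 3.78%, against 5.32% and 3.98% of intergenic lncRNAs and 3.22% and 2.65% of coding features.

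The members over Socs2 and Fabp5 were among the 12 with the lowest ratios. NC_AS_C10_9182 (chr10:94877833-94879283 on mm9), inside Socs2, whose protein feeds back on GH receptor signalling, was at 5.78 TPM in Control, 0.424 in aHepGHRkd, 0.541 with rIGF1 and 14.4 with STAT5bCA. The aHepGHRkd and aHepGHRkd_rIGF1 groups were low, and the STAT5bCA group was above Control. Its ratio per the authors' deposited table was 0.0748 (adjusted p = 1.59e-30) for aHepGHRkd and 33.7 (adjusted p = 4.6e-60) for STAT5bCA over aHepGHRkd, beside 0.0833 and 26.7 for Socs2 itself. NC_AS_C3_2145, inside Fabp5, a fatty acid-binding protein gene, was at 22.4, 1.11, 0.754 and 17.6 TPM. It was low in aHepGHRkd and with rIGF1, and its ratios of 0.0498 (adjusted p = 1.9e-33) and 16.4 (adjusted p = 1.05e-36) per the authors' deposited table stand beside 0.0499 and 16.4 for Fabp5.

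NC_AS_C5_4768 reaches over the end of Urad, a gene of uric acid breakdown, and stood at 68.0, 8.94, 7.42 and 67.0 TPM. The Control and STAT5bCA values were close to each other, and the ratios were 0.131 (adjusted p = 4.62e-65) and 7.73 (adjusted p = 2.34e-55), beside 0.131 and 7.36 for Urad, per the authors' deposited table. NC_AS_C7_6194, annotated as Gm2788, reaches over the start of E2f8, which encodes a repressor of cell cycle genes. It was at 1.46, 0.132, 0.0923 and 1.47 TPM, with ratios of 0.0918 (adjusted p = 4.73e-26) and 11.3 (adjusted p = 8.04e-26), beside 0.114 and 10.8 for E2f8, per the authors' deposited table. NC_AS_C9_8106 over Onecut1 was at 20.2, 6.03, 4.85 and 18.3 TPM, again high in Control and with STAT5bCA, with ratios of 0.297 (adjusted p = 5.84e-07) and 3.11 (adjusted p = 9.75e-07), beside 0.345 and 2.64 for Onecut1, per the authors' deposited table. The comparisons of aHepGHRkd over Control and of STAT5bCA over aHepGHRkd share the aHepGHRkd group, so a low value there enters both ratios.

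Rapgef4os1 (NC_AS_C2_1457, 7 exons inside Rapgef4, a gene for a cAMP-activated exchange factor) is shown beside its sense gene. Its TPM was 2.75 in Control, 0.0813 in aHepGHRkd, 0.0883 with rIGF1 and 1.49 with STAT5bCA, and Rapgef4 stood at 65.0, 24.7, 27.2 and 46.2 TPM. In the authors' deposited table its ratio was 0.0296 (adjusted p = 1.6e-51) in aHepGHRkd against 0.375 (adjusted p = 1.45e-27) for Rapgef4. With STAT5bCA it rose 18.8-fold (adjusted p = 7.89e-48) and Rapgef4 1.93-fold (adjusted p = 2.36e-08) per the authors' deposited table. Its level was 4.22% of that of Rapgef4 in Control and 0.329% in aHepGHRkd. With 1 added to each group TPM the member's log2 ratio was -1.79 in place of -5.08 in aHepGHRkd, beside -1.42 for the deposited ratio of Rapgef4, and 1.20 in place of 4.24 with STAT5bCA, beside 0.95. The difference between the paired ratios was not tested, since no value per animal was used.

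The targeted gene carries 2 members. NC_AS_C15_12323 (chr15:3289238-3298096 on mm9, plus strand, 1 exon, inside Ghr) was at 20.4 TPM in Control, 2.58 in aHepGHRkd, 3.13 with rIGF1 and 2.44 with STAT5bCA. All 3 groups given Cre were low, and its ratio to Control was 0.124 (adjusted p = 6.07e-98) per the authors' deposited table. It stood at 11.3% of the Ghr TPM in Control and at 4.67% to 5.36% in the 3 Cre groups. The other, NC_AS_C15_26237, was at 0.914, 0.819, 1.07 and 0.562 TPM and did not pass the test, with a ratio of 0.894 (adjusted p = 1) per the authors' deposited table. With Ghr counted, 6 of 23 genes of a GH and IGF1 axis list carried 8 members, of which 3 fell (those over Socs2, Ghr and Onecut1) and none rose in aHepGHRkd. Among all 23 genes of that list, 8 fell and 2 rose.

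Genes known to be higher in male liver carried several members that fell. Of 17 members over 9 such genes, 12 fell and none rose in aHepGHRkd, with a median log2 ratio of -1.77 over the 17. Of the 31 genes of that list in the table, 23 fell and 1 rose. Slco1a1 carried 5 of the 12, which share 1 sense gene and are not independent. NC_AS_C6_43545 was the highest of them at 6.97, 0.170, 0.268 and 1.74 TPM, with a ratio of 0.026 (adjusted p = 3.36e-36) per the authors' deposited table, and the other 4 had ratios from 0.0268 to 0.0523. Of these 4, NC_AS_C6_43548, NC_AS_C6_43549 and NC_AS_C6_43550 reached 0.5 TPM in Control alone, as did NC_AS_C13_24388 inside Srd5a1. That Control stood highest was fixed by the selection for these members. The remaining 2 Slco1a1 members did not follow the gene, which had a ratio of 0.0215 per the authors' deposited table. NC_AS_C6_43542 was at 1.28, 1.56, 1.90 and 0.936 TPM and NC_AS_C6_43543 at 1.45, 1.65, 2.26 and 1.33 TPM, and each had an adjusted p of 1 per the authors' deposited table.

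Selenbp2, a selenium-binding protein gene, carried 2 of the 12. NC_AS_C3_36404 was at 130 TPM in Control, 4.36 in aHepGHRkd, 3.49 with rIGF1 and 36.6 with STAT5bCA, and NC_AS_C3_36405 at 14.4, 0.469, 0.504 and 4.13 TPM. Both were partly higher again with STAT5bCA, with ratios to aHepGHRkd of 8.62 (adjusted p = 5.09e-26) and 8.77 (adjusted p = 7.66e-25) per the authors' deposited table. The other male-biased genes under a member that fell were Egfr, Mup20, C8b, Srd5a1 and Nudt7. NC_AS_C4_3297, which spans 229552 bp over the major urinary protein cluster with Mup20, was at 526, 151, 164 and 175 TPM with a ratio for STAT5bCA over aHepGHRkd of 1.19 (adjusted p = 1) beside 0.644 (adjusted p = 0.024) for Mup20 per the authors' deposited table. The member overlaps Mup20 by 3883 bp, or 1.69% of its own span. The cluster that it spans holds near-identical gene copies, so its counts are uncertain. With STAT5bCA, 6 of the 17 members over male-biased genes rose and 1 fell, the latter NC_AS_C3_2894 over Cyp2u1, a fatty acid hydroxylase gene. Those that rose lay over Slco1a1, Selenbp2 and C8b alone, and members that share a sense gene are not independent. Of the 31 genes of that list in the table, 13 rose and 6 fell with STAT5bCA.

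**Figure D3:**
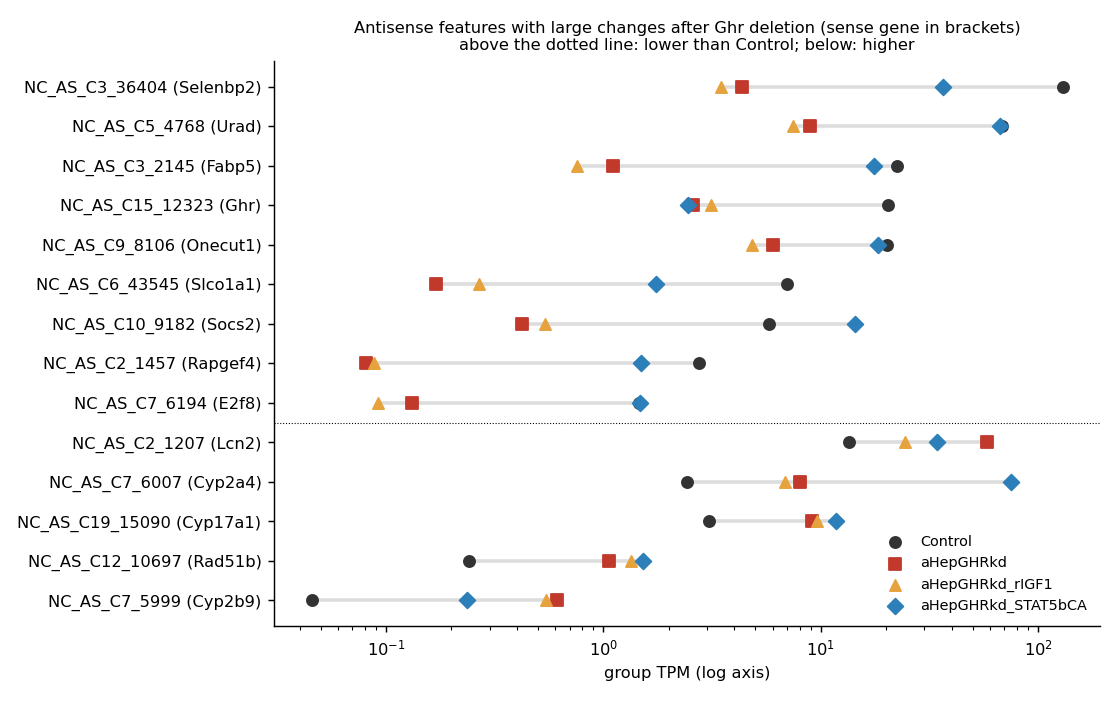
Group TPM (log axis) of 14 members with large ratios in aHepGHRkd over Control, 1 row each with the sense gene in brackets and 1 symbol for each of the 4 groups. Members above the dotted line were lower than Control in aHepGHRkd, such as NC_AS_C5_4768 (68.0 against 8.94), and those below it were higher, such as NC_AS_C2_1207 (13.5 against 58.1).

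Of the 37 members that rose, 4 lay over genes of the female-biased list and 2 over genes of the acute-phase list. NC_AS_C2_1207 covers Lcn2, which encodes the iron-scavenging protein lipocalin 2, and was at 13.5 TPM in Control, 58.1 in aHepGHRkd, 24.5 with rIGF1 and 34.2 with STAT5bCA. Its ratio of 4.38 (adjusted p = 1.21e-10) stands beside 4.36 for Lcn2 per the authors' deposited table, and its level was 8.83% to 8.89% of Lcn2 in the 4 groups. Gm42375 (NC_AS_C7_6007), over the start of the steroid hydroxylase gene Cyp2a4, was at 2.42, 8.01, 6.83 and 74.9 TPM. It was highest with STAT5bCA, with a ratio of 3.22 (adjusted p = 1.42e-06) in aHepGHRkd and 9.85 (adjusted p = 1.02e-30) with STAT5bCA over aHepGHRkd, beside 3.15 and 8.98 for Cyp2a4 per the authors' deposited table. Cyp2a4 has a near-identical neighbour gene, so both values are uncertain.

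NC_AS_C19_15090 reaches over the start of Cyp17a1, a steroid hydroxylase gene, and was at 3.06, 9.11, 9.66 and 11.7 TPM, with a ratio of 2.98 (adjusted p = 3.76e-10) beside 3.03 for Cyp17a1 per the authors' deposited table. NC_AS_C7_5999 spans 301773 bp and 25 exons over Cyp2b9, a female-biased cytochrome P450 gene, and other genes of its cluster. It was at 0.0455, 0.615, 0.546 and 0.235 TPM, with ratios of 13.4 (adjusted p = 1.74e-27) and 0.390 (adjusted p = 8.34e-06) per the authors' deposited table. Cyp2b9 itself had ratios of 209 (adjusted p = 6.46e-88) and 0.699 (adjusted p = 0.987) per the authors' deposited table. With 1 added to each TPM the member's log2 ratio to Control was 0.63 in place of 3.74. NC_AS_C12_10697 lies inside Rad51b, a DNA repair gene, and was at 0.242, 1.06, 1.34 and 1.52 TPM, with a ratio of 4.31 (adjusted p = 1.54e-10) beside 3.61 for Rad51b per the authors' deposited table. In these 3 members the Control group was the lowest. Of 10 members over 9 female-biased genes, 4 rose and 1 fell in aHepGHRkd, with a median log2 ratio of 0.48, and of the 35 genes of that list with a value 17 rose and 6 fell.

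The member that fell is NC_AS_C19_14772, which spans 480070 bp, 35 exons and 10 opposite-strand genes on chromosome 19. It was at 3.19, 1.84, 2.03 and 2.45 TPM, and its ratio was 0.57 (adjusted p = 5.4e-08) per the authors' deposited table. Its assigned sense gene Slc22a27, an organic anion transporter gene, moved the other way with a ratio of 20.9 (adjusted p = 2.61e-36) per the authors' deposited table. It was the 1 called member whose sense gene was called in the opposite direction, and was singled out after its values were seen.

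Of 6 members over glucose genes, 2 fell and 1 rose in aHepGHRkd, against 4.99% and 1.79% of all members. NC_AS_C2_35078, over the start of the gluconeogenic gene Pck1, was at 267, 132, 156 and 165 TPM, with a ratio of 0.489 (adjusted p = 1.43e-09) per the authors' deposited table beside 0.506 for Pck1. NC_AS_C11_10075 inside the glucose-6-phosphatase gene G6pc fell to a ratio of 0.666 (adjusted p = 0.0382), and NC_AS_C16_13420 inside the glycogen branching enzyme gene Gbe1 rose 1.41-fold (adjusted p = 0.00085), per the authors' deposited table. Among 6 members over acute-phase genes 2 rose (Lcn2 and Hamp) and 2 fell (C3 and Wfdc21), and among 14 over liver transcription factor genes 2 fell (Nr1h4 and Klf15). None of 9 members over lipogenesis and lipid genes and none of 3 over circadian genes was called for aHepGHRkd by edgeR per the authors' deposited table, which does not list unadjusted p-values. Among the listed genes themselves, 12 of 24 acute-phase genes rose and 4 fell. Of 43 lipid genes 7 rose and 3 fell, and of 22 glucose genes 3 rose and 6 fell. Of 19 transcription factor genes 0 were called, and of 19 circadian genes 1 fell. The lists do not hold every gene of their kind. Onecut1 was counted in the GH and IGF1 axis list alone, and Fabp5 and Fads2 were not in the lipid list.

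The sense gene was called in the same direction for 99 of the 140 members called in aHepGHRkd (70.7%), that is 30 of 37 that rose and 69 of 103 that fell. Among the 1915 members not called, the sense gene was called for 103 (5.38%). The log2 ratio of member and sense gene correlated across features (Pearson r = 0.70 over 2055 members, which share libraries, spans and possibly reads, and are not independent). For members with 1 exon r was 0.74 and for those with several exons 0.62. The log2 ratios lay within 0.2 of each other for 1368 members, and over 1 apart for 70.

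**Figure D4:**
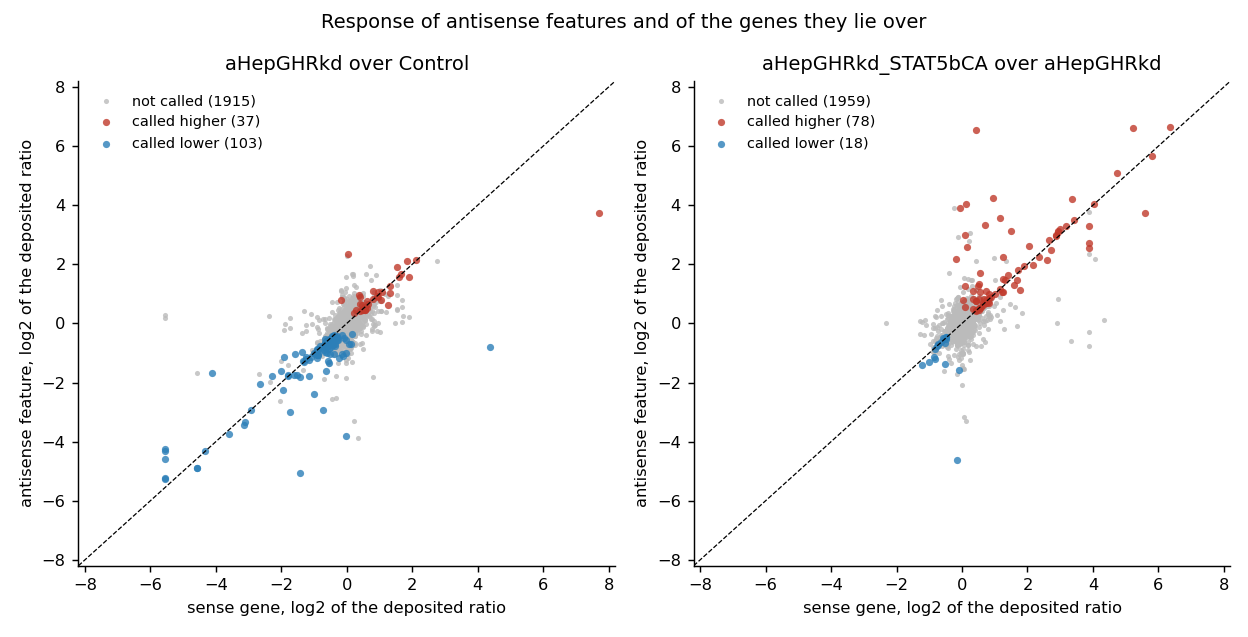
Log2 ratio of each of 2055 antisense features against that of its sense gene, for aHepGHRkd over Control (left) and STAT5bCA over aHepGHRkd (right), with called members in red (higher) or blue (lower) and equality as a dashed line. Most points lie along the line (r = 0.70 and 0.66), and a column of red points at right stands above sense genes with log2 ratios near 0. Members of this column over Lipc, Scn3a and Msra reached 0.5 TPM through the STAT5bCA group alone. That this group stood highest was fixed by the selection for them.

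Members that fell in aHepGHRkd over a sense gene that did not pass the test numbered 33. Gm14097 (NC_AS_C2_34399), inside the DNA repair gene Shld1, was at 10.6, 4.32, 4.2 and 6.17 TPM. Its ratio was 0.400 (adjusted p = 9.01e-15), against 0.688 (adjusted p = 0.177) for Shld1 per the authors' deposited table. NC_AS_C17_14018 inside Fbxl17, an F-box protein gene, was at 3.18, 1.54, 1.87 and 2.07 TPM, with a ratio of 0.485 (adjusted p = 7.44e-08) beside 0.757 (adjusted p = 0.0897) per the authors' deposited table. In each the Control value was the highest. NC_AS_C2_1073, with 9 exons over the end of the interleukin 2 receptor gene Il2ra, was at 1.09, 0.559, 0.512 and 0.813 TPM, above Il2ra itself at 0.198 TPM in Control, and its ratio was 0.508 (adjusted p = 0.000141) per the authors' deposited table. An effect called for a member and not for its sense gene does not show that the effects differ, and the difference was not tested.

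Rat IGF1 was compared with aHepGHRkd alone. None of the 2065 members rose and 1 fell (0.0484%), against 0.0105% higher and 0.0157% lower among all features over the floor and 0.00792% in both directions among all features. The p per the authors' deposited table (edgeR) was under 1 for 78 members, and unadjusted p-values are not in it. The member that fell was NC_AS_C11_20912, over the end of Wfdc21, a small secreted protein gene of the acute-phase list. It was at 93.0 TPM in Control, 38.7 in aHepGHRkd, 14.8 with rIGF1 and 66.6 with STAT5bCA. The rIGF1 group was the lowest, with a ratio to aHepGHRkd of 0.355 (adjusted p = 0.0232) beside 0.329 (adjusted p = 0.0114) for Wfdc21 per the authors' deposited table. The member stood at 6.77% to 7.63% of the Wfdc21 TPM in the 4 groups. For the Socs2 member NC_AS_C10_9182 the rIGF1 ratio to aHepGHRkd was 1.15 and for the Urad member NC_AS_C5_4768 it was 0.765, with an adjusted p of 1 for each per the authors' deposited table.

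Constitutively active STAT5b was then compared with aHepGHRkd. With it, 78 members rose and 18 fell, with a median ratio of 2.83 among those that rose and 0.599 among those that fell. These are 3.78% and 0.872% of the members, against 2.90% higher and 0.613% lower among all features over the floor, and 1.21% in both directions among all features. Of the 96 called, 64 were at or above 0.5 TPM in all 4 groups, and 27 of the 78 that rose were under 0.5 TPM in aHepGHRkd. Members with several exons were called higher in 5.95% of cases and those with 1 exon in 2.69%. The median log2 ratio of all members was 0.00.

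Of the members called with STAT5bCA, 13 reached 0.5 TPM in the STAT5bCA group alone. Their selection required a high value there, so their values are a description. NC_AS_C16_27824, over A930007A09Rik, was at 0.0299, 0.0363, 0.0552 and 1.86 TPM, with a ratio of 50.4 (adjusted p = 1.28e-80) beside 55.7 per the authors' deposited table, and its log2 ratio was 1.47 in place of 5.66 with 1 added to each TPM. NC_AS_C8_47472, over the end of the zinc finger gene Snai3, was at 0.0139 TPM in Control, listed at 0 in aHepGHRkd and with rIGF1, and at 0.518 with STAT5bCA (adjusted p = 8.19e-14 per the authors' deposited table). Snai3 was at 0.188, 0.112, 0.0665 and 4.27 TPM.

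Among more abundant members, NC_AS_C12_10736 over the end of the acyl-CoA thioesterase gene Acot3 was at 15.1, 9.59, 13.7 and 85.6 TPM, with a ratio of 9.25 (adjusted p = 6.12e-54) beside 7.97 for Acot3 per the authors' deposited table. NC_AS_C7_6288, over the end of the lipid hydrolase gene Abhd2, was at 39.7, 23.3, 18.0 and 77.8 TPM, with a ratio of 3.48 (adjusted p = 1.16e-20) beside 3.27 for Abhd2 per the authors' deposited table. Both were higher with STAT5bCA than in Control. NC_AS_C17_30086, over the complement gene C3, was at 434, 266, 256 and 465 TPM, with a ratio of 1.8 (adjusted p = 8.77e-07) beside 1.79 for C3 per the authors' deposited table. NC_AS_C16_13150 inside Fetub, which encodes fetuin B, was at 97.3, 64.0, 62.4 and 94.7 TPM, with a ratio of 1.52 (adjusted p = 3e-05) beside 1.55 for Fetub per the authors' deposited table. In these last members the STAT5bCA and Control values lay close together. Of 10 members over female-biased genes, 4 rose and 1 fell with STAT5bCA, and of the 35 genes of that list 17 rose and 3 fell.

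The sense gene was called in the same direction for 72 of the 96 members called with STAT5bCA (75%), that is 58 of 78 that rose and 14 of 18 that fell, and it did not pass the test for 20 and 4. Among 1959 members not called, the sense gene was called for 46 (2.35%). The correlation of log2 ratios across 2055 members was r = 0.66, at 0.75 for members with 1 exon and 0.51 for those with several.

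Some members rose with STAT5bCA over genes that did not pass the test in that comparison. NC_AS_C9_8080 (chr9:70762146-70809509 on mm9, 17 exons, over the start of Lipc, the hepatic lipase gene) was at 0.0384 TPM in Control, 0.0223 in aHepGHRkd, 0.0430 with rIGF1 and 2.07 with STAT5bCA. Lipc stood at 109, 72.0, 71.8 and 94.2 TPM. In the authors' deposited table the member had a ratio of 93.2 (adjusted p = 9.11e-127) and Lipc of 1.35 (adjusted p = 0.122). Lipc itself fell in aHepGHRkd over Control, with a ratio of 0.655 (adjusted p = 0.00103) per the authors' deposited table. The member's share of the Lipc TPM was 0.0352% in Control and 2.20% with STAT5bCA. NC_AS_C14_25784, with 3 exons inside the methionine sulfoxide reductase gene Msra, was at 0.0297, 0.0411, 0.116 and 0.638 TPM, with a ratio of 15.1 (adjusted p = 5.01e-13) beside 0.958 (adjusted p = 1) for Msra per the authors' deposited table. Both members reached the floor of 0.5 TPM through the STAT5bCA group alone, so that it stood highest was fixed by the selection. With 1 added to each TPM the log2 ratio was 1.59 in place of 6.54 for NC_AS_C9_8080 and 0.65 in place of 3.92 for NC_AS_C14_25784.

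NC_AS_C12_22559, inside the folate enzyme gene Mthfd1, was at 1.85, 1.23, 0.730 and 5.28 TPM, with a ratio of 4.5 (adjusted p = 8.68e-14) beside 0.887 (adjusted p = 1) for Mthfd1 per the authors' deposited table. NC_AS_C2_1343, over the start of the sodium channel gene Scn3a, was at 0.0166, 0.0433, 0.00672 and 0.703 TPM, with a ratio of 16.6 (adjusted p = 3.9e-06) per the authors' deposited table, and Scn3a was at 0.0270 to 0.0453 TPM in all groups. It too reached the floor with STAT5bCA alone, and its log2 ratio was 0.71 in place of 4.05 with 1 added to each TPM. 4930594M22Rik (NC_AS_C14_12314), over the end of Tmtc4, a mannosyltransferase gene, was at 1.34, 0.917, 0.994 and 1.58 TPM. In aHepGHRkd it fell, with a ratio of 0.676 (adjusted p = 0.000103), and it rose 1.78-fold (adjusted p = 5.98e-13) with STAT5bCA, while Tmtc4 had ratios of 0.989 (adjusted p = 1) and 1.42 (adjusted p = 0.0894) per the authors' deposited table. The differences from the sense genes were not tested, since no value per animal was used.

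**Figure D5:**
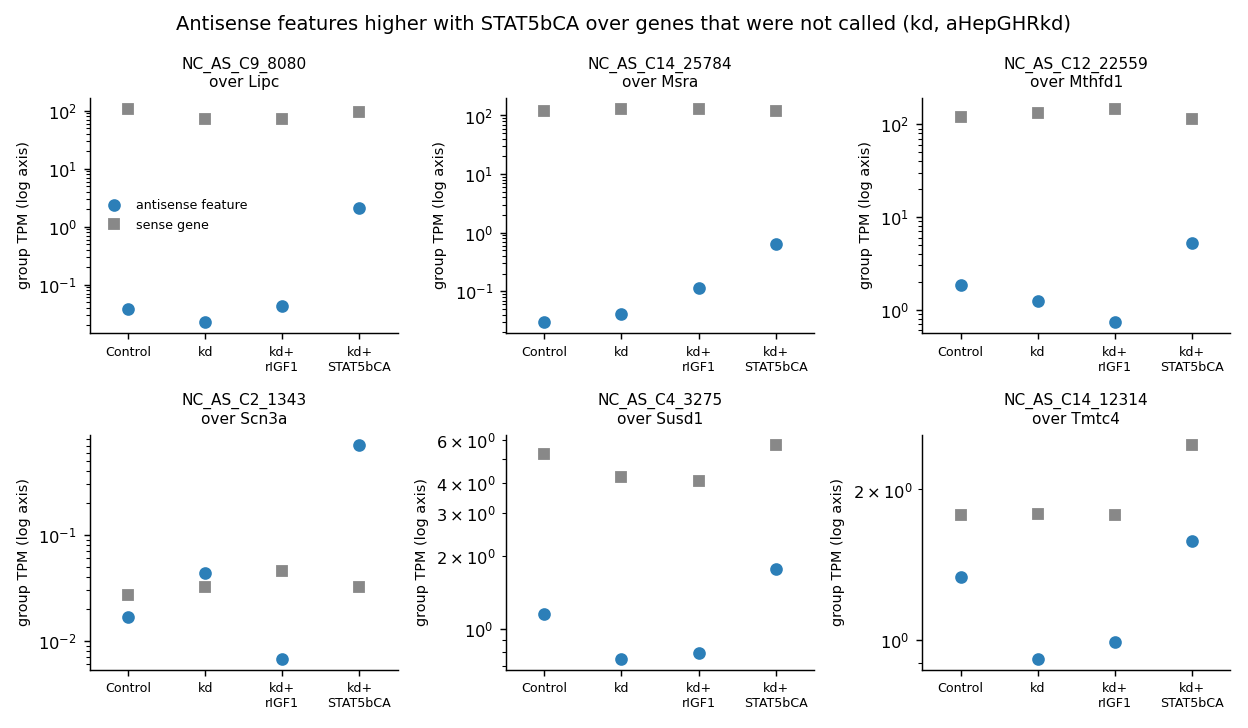
Group TPM (log axis) in Control, aHepGHRkd (kd), with rIGF1 and with STAT5bCA for 6 members called higher with STAT5bCA (blue circles) and their sense genes (grey squares). The sense genes were not called for STAT5bCA over aHepGHRkd, but Lipc was called lower in aHepGHRkd over Control. Over Lipc the antisense value rises from 0.0223 to 2.07 TPM between kd and STAT5bCA while Lipc stands at 72.0 and 94.2.

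Members that fell with STAT5bCA were fewer. NC_AS_C7_6048, annotated as Gm44662 and covering the hepcidin gene Hamp, was at 616 TPM in Control, 973 in aHepGHRkd, 809 with rIGF1 and 573 with STAT5bCA. It was highest in aHepGHRkd, with ratios of 1.57 (adjusted p = 0.00155) and 0.605 (adjusted p = 0.000808) beside 1.57 and 0.603 for Hamp per the authors' deposited table, and stood at 11.8% of Hamp in each group. NC_AS_C3_2894 over the end of Cyp2u1 was at 17.5, 16.8, 14.4 and 6.57 TPM, with a ratio of 0.403 (adjusted p = 3.4e-22) beside 0.501 for Cyp2u1 per the authors' deposited table. NC_AS_C19_14998, inside the phosphodiesterase gene Pde6c, was at 0.579, 1.73, 1.47 and 0.627 TPM, with ratios of 2.94 (adjusted p = 0.0254) and 0.373 (adjusted p = 0.0165) beside 3.71 and 0.426 for Pde6c per the authors' deposited table. For Cyp2u1 the STAT5bCA group stood below the other 3, and for Pde6c it stood near Control. NC_AS_C17_30099, over the start of the ephrin gene Efna5, was at 0.281, 0.709 and 0.692 TPM in the other groups and listed at 0 with STAT5bCA (adjusted p = 0.0186 per the authors' deposited table), while Efna5 was at 2.03, 2.49, 2.88 and 2.19 TPM.

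The STAT5 core letters TTCNNNGAA were also counted in the RefSeq promoter windows of the sense genes. They occurred in 114 of 1475 windows (7.73%) over all members, in 8 of 81 (9.88%) for sense genes of members that fell in aHepGHRkd and in 7 of 51 (13.7%) for those of members that rose with STAT5bCA, against 8.30% of all RefSeq promoters. These shares are descriptions of letters in a window and were not tested.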

How the data were processed

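Liver polyA RNA of 24 mice in 4 groups was measured, per the labels' protocols. Per the submitters' processing notes the authors used STAR, featureCounts and edgeR on build mm9, and their versions were not given in the sources used here. Strand use in counting was likewise not stated, and antisense and sense reads could then be counted for either feature. The authors' deposited TPM values, 1 for each group, cover 75798 listed features, of which 75794 were read since 4 lines were empty. The deposited ratio (a linear fold) is from the authors' edgeR fit, per the file headers. No adjustment is named in the header of the deposited p-values. They were taken as Benjamini-Hochberg adjusted, because 69174, 75054 and 72384 values are exactly 1 in the comparisons of aHepGHRkd over Control, rIGF1 over aHepGHRkd and STAT5bCA over aHepGHRkd.

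Members were selected, sense genes assigned by span overlap of at least 1 bp, and counts made with Python 3.11.15 and pandas 2.3.3. A member was called at an adjusted p under 0.05, in the direction of the ratio. These steps were tested on simulated data. Members, gene lists and rules were chosen with earlier results of these data known. Named members are, per comparison and direction, the 12 called with the largest fold, the 10 highest in Control, the 5 called with the smallest p over a sense gene that was not called, called members over listed genes, the 12 highest called oppositely in the aHepGHRkd and STAT5bCA comparisons, and the 2 nearest each side of the floor, of which the text gives a part. Members shown for their promoter or miRNA, uncalled members over Ghr and Slco1a1, and NC_AS_C19_14772 were added after their values were seen. Alternatives were group TPM ratios with 0.1 or 1 added to each value, a fold of 2, a p of 0.01, other floors and other definitions of the sense gene. Coordinates of members are on mm9 and those of RefSeq sequences on GRCm38.p6, and no coordinate was converted. 1 result on a member is not reported here.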

Additional observations from a re-analysis of the deposited data

How the results depend on the processing

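All counts rest on group values with unknown depth. Low members such as NC_AS_C2_1343 are the least certain, and no spread between animals could be computed. No paired analysis was possible because the table holds 1 value per group, and for the same reason no replicate was left out. Requiring a fold of 2 as well, 13 members rose and 52 fell in aHepGHRkd, and 7 fell with STAT5bCA. At a p under 0.01, 23 rose in aHepGHRkd, 0 fell with rIGF1 and 11 fell with STAT5bCA. A fold of 2 in both features left 44 members called with their sense gene in aHepGHRkd and 38 with STAT5bCA, and an overlap of at least 50% of the member left 47 with STAT5bCA. The other 42 counts, over these settings, floors of 1 TPM, a mean of 0.5 TPM or none, directions from TPM and, added after the data were seen, each sense gene counted once, stayed within 1.5 times the counts reported. Of 114 log2 ratios of named members, adding 0.1 to each group TPM moved 20 and adding 1 moved 42 by over 1.5 times. No value changed direction in these settings.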
